A study of Mus musculus with 8 samples.

Results

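Interferon-stimulated genes (ISGs) are genes whose transcription rises when a cell senses interferon, and 45 of them were followed here through a culture of mouse cardiac fibroblasts. They were chosen by symbol, for being classical interferon targets, from the 24015 genes of the deposited table; all 45 were found, and 44 entered the tests among 13527 genes. The study grew cardiac fibroblasts, the connective tissue cells of the heart, from 8-week-old wild-type C57BL/6J mice in a medium for osteogenic differentiation, which is meant to turn such cells into bone-forming cells. Untreated cells gave the day 0 RNA, and cells grown in the medium gave RNA on day 7, day 14 and day 21. Each of these times has 2 libraries. All groups share strain, genotype, age and cell type, and neither an interferon nor a virus is named in any label. Cells cultured equally long in the absence of this medium were not analysed here, so the medium and the days in culture cannot be told apart. Whether replicate libraries stem from different cultures or animals is not stated in the labels, so the p-values cover the spread between these libraries alone, which may be technical.

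Type I interferons bind the receptor Ifnar1/Ifnar2, and interferon gamma binds Ifngr1/Ifngr2. Both receptors act through Janus kinases: the type I receptor leads to a complex with Stat2 and Irf9 that binds the interferon-stimulated response element (ISRE), and the gamma receptor to factors that bind the gamma-activated site (GAS). The genes switched on include proteins that bind viral RNA, enzymes that make or degrade RNA messengers, membrane proteins that block viral entry or release, and GTPases that attack the vacuoles of intracellular pathogens. Many ISGs are also expressed at a low level without infection.

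Reads assigned to genes numbered 13399313 to 21883498 per library, and 15409 to 16200 genes had at least 1 read. Values are reads divided by 1 size factor per library, called normalized counts below; they are not divided by gene length. Of the fibroblast markers, all 12 were detected at each time, and their summed level was 739267 to 748314 normalized counts at day 0 and 329475 to 556097 later. Macrophage markers, 20 in the table, summed to 1419 and 1557 on day 0, 13677 and 11084 on day 7, 22432 and 41570 on day 14, and 22250 and 22868 on day 21; none of the 20 was at 0 reads at any time. T and NK cell markers gave 2 to 6 reads in all per time, and none of them, nor any B cell or neutrophil marker, was high enough to test. In bulk RNA, a change in the number of cells of a type and a change in RNA per cell cannot be told apart.

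At day 7 most ISGs stood above their day 0 level. Of 44 tested, 32 rose, 2 fell and 10 did not pass the test (limma, adjusted p below 0.05), where 27.5% of all tested genes were called higher and 27.9% lower. The median difference was 0.94 on the log2 scale against -0.01 for all genes. Both day 7 libraries lay above both day 0 libraries for 35 genes and below for 2. The share of all genes that separate in this way was not counted, so these 2 numbers have no background. By day 21 the count against day 0 was 36 higher and 2 lower, with backgrounds of 29.8% and 29.5%, and the median was 1.08 against 0.0009 for all genes. Oas2, Oas3 and Mx2 were under 10 in both day 0 libraries and entered the tests only through the later times. The filter itself thus selected them for higher later values. Without them, 29 of 41 ISGs were higher at day 7 (25.5% of all genes left by the same rule) with a median of 0.82, and 33 of 41 at day 21 (27.5%) with a median of 0.99. All 32 genes that rose by day 7 were also higher at day 21, joined by Isg15, Oas1a, Isg20 and Xaf1. The 2 genes that fell, Irgm1 and Ifi47, were lower at both times. Ifit2, Oasl1, Ddx58, Eif2ak2, Zbp1 and Rsad2 passed the test against day 0 at neither time. Both comparisons use the same day 0 libraries. Of the 34 calls at day 7, 21 held without any 1 of the 4 libraries compared, and 26 of the 38 at day 21 did. The calls that held include Oas2 and Oas3 at day 7, and Oas2, Oas3 and Mx2 at day 21, which the filter selected for higher later values. DESeq2 did not call Ifi44, Ifit1, Irf7, Oasl2 and Usp18 at day 7, nor Ifi44, Irf7, Isg15, Isg20 and Usp18 at day 21. With a trend on transcript length and GC content removed, Ifi44 and Usp18 were no longer called at day 7, nor Ifi44, Isg15 and Isg20 at day 21.

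Markers of other cell types were read over the same steps. Among all tested genes, 27.5% were higher and 27.9% lower at day 7, and 29.8% and 29.5% at day 21. Of the 20 macrophage markers, 18 were higher at day 7 (median 2.52), and at day 21 18 were higher and Cx3cr1 lower (median 3.22); 5 of the 20 were under 10 in both day 0 libraries, and of the other 15, 14 were higher at each time. Cardiomyocyte markers, 8 in the table, summed to 1213 and 1137 normalized counts on day 0, 11752 and 11094 on day 7, 22455 and 28813 on day 14, and 10595 and 5869 on day 21. Tnnt2, a troponin subunit of heart muscle, was the only one of the 3 tested that reached 10 on day 0. It was higher at both times, by 3.28 at day 7 and 2.75 at day 21 on the log2 scale. The sum therefore rests mostly on Tnnt2 and does not stand for the 8 markers together. Of the 8 markers, 4 were at 0 reads on day 0 and 3 on day 21. Of 9 endothelial markers tested, 2 were lower at day 7 (22.2%, median -0.52) and 7 at day 21 (77.8%, median -2.00), and none was higher. The day 7 share of lower endothelial markers was below that of all tested genes. The fibroblast markers were split, with 5 of 12 higher (41.7%) and 4 lower (33.3%) at both times. The part of these cell types in the ISG difference was not tested.

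**Figure D1:**
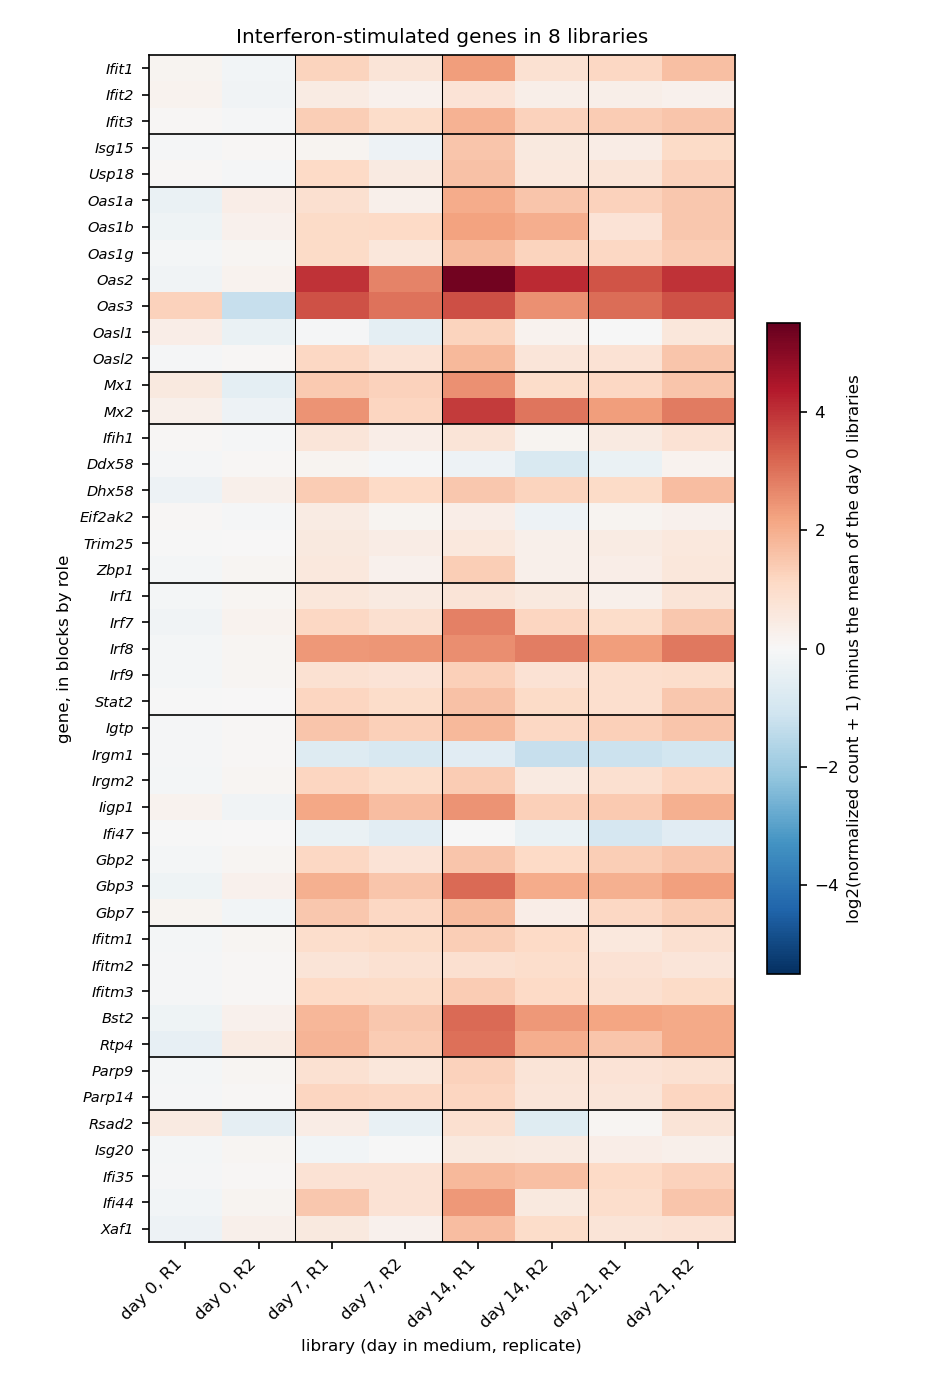
Each row is 1 of the 45 genes, in blocks by role, and each column 1 of the 8 libraries; colour gives log2(normalized count + 1) minus the mean of the day 0 libraries. Oas2, Mx2 and Oas3 hold the deepest red cells, Irgm1 and Ifi47 are blue, and 35 of 45 genes are highest in the first day 14 library.

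The response elements that define these genes can be read in the sequence before the transcription start. RefSeq promoter windows (GRCm38.p6, 250 bases before to 50 after the start) were found for 34 of the 45 genes by symbol. The ISRE core was searched as GAAA, any 2 bases and GAAA again, on either strand: 20 of the 34 genes held it, 58.8% against 3.99% of 27025 genes with a window. The GAS core, TTCNNNGAA, which reads the same on both strands, stood in 12 of 34 (35.3%, against 9.55% of all). Both cores were present in 7 genes and neither in 9, and in Bst2 and Ifitm3 an ISRE match overlapped a GAS match. These shares describe how the genes were picked as classical targets, and a match is neither a binding site nor a cause of a change.

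Of the genes with an ISRE match, 6 windows are printed, all from genes called against day 0. Bst2, Gbp3, Ifit3 and Stat2 rose by day 7, Isg15 rose later, and Irgm1 fell. Ddx58, Eif2ak2 and Rsad2 also have a match but passed the test against day 0 at neither time, and their windows are not printed. Each printed window is written 5′ to 3′ on the gene's strand, with every ISRE match in capitals. Positions count from the transcription start. Bst2 lies at chr8:71537423-71537722 (minus strand), with overlapping matches at -130 and -124. Gbp3 lies at chr3:142559794-142560093 (plus strand), with overlapping matches at -45 and -39 on the opposite strand. Another Gbp3 window, at chr3:142560106-142560405, holds no ISRE match, so the match depends on the start used. Ifit3 lies at chr19:34583279-34583578 (plus strand), with separate matches at -156 and -122 on the opposite strand. Stat2 lies at chr10:128270248-128270547 (plus strand), with 1 match at -222 on the opposite strand. Isg15 lies at chr4:156200769-156201068 (minus strand), with 3 overlapping matches at -78, -72 and -66. Irgm1 lies at chr11:48871371-48871670 (minus strand), with overlapping matches at -30 and -24.
Bst2: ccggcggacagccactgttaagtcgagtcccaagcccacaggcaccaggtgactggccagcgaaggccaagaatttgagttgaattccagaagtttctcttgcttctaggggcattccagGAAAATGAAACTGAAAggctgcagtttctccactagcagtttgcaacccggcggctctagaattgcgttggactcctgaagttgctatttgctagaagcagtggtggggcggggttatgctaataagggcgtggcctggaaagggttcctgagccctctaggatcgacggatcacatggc
Gbp3: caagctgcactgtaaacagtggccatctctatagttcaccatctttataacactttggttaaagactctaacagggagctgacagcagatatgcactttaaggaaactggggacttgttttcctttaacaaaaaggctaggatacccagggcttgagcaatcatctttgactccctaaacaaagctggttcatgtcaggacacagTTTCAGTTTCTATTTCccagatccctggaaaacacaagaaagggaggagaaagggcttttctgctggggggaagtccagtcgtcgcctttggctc
Ifit3: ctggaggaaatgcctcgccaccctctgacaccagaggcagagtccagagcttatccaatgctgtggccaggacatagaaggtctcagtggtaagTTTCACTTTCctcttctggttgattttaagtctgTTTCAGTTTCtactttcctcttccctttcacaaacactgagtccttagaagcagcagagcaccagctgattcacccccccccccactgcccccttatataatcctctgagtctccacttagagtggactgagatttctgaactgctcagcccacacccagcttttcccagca
Stat2: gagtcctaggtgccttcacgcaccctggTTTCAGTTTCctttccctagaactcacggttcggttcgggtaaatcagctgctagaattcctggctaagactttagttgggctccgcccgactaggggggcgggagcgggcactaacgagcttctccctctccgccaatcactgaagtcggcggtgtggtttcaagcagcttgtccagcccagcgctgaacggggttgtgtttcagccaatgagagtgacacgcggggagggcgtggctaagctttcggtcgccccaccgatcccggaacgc
Isg15: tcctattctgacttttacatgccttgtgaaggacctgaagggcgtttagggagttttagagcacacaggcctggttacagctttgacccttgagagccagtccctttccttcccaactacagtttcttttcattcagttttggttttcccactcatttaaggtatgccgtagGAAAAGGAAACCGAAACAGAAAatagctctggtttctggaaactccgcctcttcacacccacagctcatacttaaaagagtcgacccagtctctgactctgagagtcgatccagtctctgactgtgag
Irgm1: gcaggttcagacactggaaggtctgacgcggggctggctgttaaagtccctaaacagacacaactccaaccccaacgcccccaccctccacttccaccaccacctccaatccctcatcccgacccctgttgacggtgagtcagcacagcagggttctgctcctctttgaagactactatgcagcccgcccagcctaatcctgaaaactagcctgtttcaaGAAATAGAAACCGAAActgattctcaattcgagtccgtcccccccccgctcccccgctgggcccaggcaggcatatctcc
The long run of GAAA repeats in Isg15 and the closely placed pair in Irgm1 have the same core letters, while the 2 genes moved in opposite directions by day 21. Among tested genes with a window, those with an ISRE match had a median log2 difference of 0.94 at day 7 and 1.22 at day 21, with 14 and 16 of 20 higher; those without had 0.68 and 0.75, with 9 and 11 of 14 higher. Oas3 is counted among the first. The difference between these sets was not tested.

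Levels spanned a wide range already before the medium. Per kilobase of transcript, the day 0 means were 11875 normalized counts for Ifitm3, 8281 for Ifitm2, 1389 for Irgm1 and 1254 for Bst2, the 4 highest of the 45. At the low end stood Mx2 with 2.73, Oas2 with 1.43, Mx1 with 0.78 and Oas3 with 0.51. By day 21 Bst2 had 5445 and Ifit3 1284 per kilobase, both above Irgm1 with 655, so the order changed while Ifitm3 and Ifitm2 stayed on top.

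The interferons themselves were hardly seen. Of 19 interferon genes in the table, 16 had no read in any library, Ifng among them; 0 reads allow up to 3 in a library. Ifnb1, the first type I interferon made by most cells, had 3 reads in the second day 14 library and 0 elsewhere, and Ifna1 had 1 read in the same library. Ifnz, a type I interferon gene, was the only one tested and was called at no step. Receptor genes were all expressed. The gamma receptor chain Ifngr1 measured, in normalized counts, 844 and 954 on day 0, 3727 and 3516 on day 7, 4535 and 4183 on day 14 and 3671 and 3879 on day 21. All later libraries lay far above day 0, and the difference at day 7 was 2.01 ± 0.10 (adjusted p = 5.65e-09). Its partner Ifngr2 stayed between 991 and 1117 and was not called in any comparison. For the type I receptor, Ifnar2 rose by 0.65 ± 0.09 (adjusted p = 4.88e-05) at day 7. Ifnar1, at -0.01 ± 0.10 (adjusted p = 0.933), did not pass the test at day 7, then fell by 0.57 ± 0.10 (adjusted p = 0.000719) from day 7 to day 14. From day 14 to day 21 both Ifnar1 and Ifnar2 were called higher, beside 20.2% of all tested genes. Of 6 receptor genes tested, 4 rose at day 7 and none fell. Among 12 genes of receptor signalling, 4 rose and none fell (33.3% and 0%, beside 27.5% and 27.9% of all genes), with the kinase Jak2, the inhibitor Socs3 and the phosphatase Ptpn6 among them. At the next step, to day 14, 2 of the 12 rose and 5 fell, beside 25.0% and 27.0% of all tested genes. Socs3, a feedback inhibitor induced by several cytokines, rose by 0.78 ± 0.10 (adjusted p = 4.07e-05) at day 7, and Socs1, the classical inhibitor of interferon signalling, gave 0.03 ± 0.25 (adjusted p = 0.931).

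Transcription factors of the response rose together, 5 of 5 at day 7 and 5 of 5 at day 21. The shares of all tested genes called higher were 27.5% and 29.8%. Stat2, which reads type I signals, measured, in normalized counts, 460.2 and 477 on day 0, 1050.3 and 957 on day 7, 1445 and 975 on day 14 and 883 and 1298 on day 21. Every later library lay above both day 0 libraries, and the difference was 1.10 ± 0.19 (adjusted p = 0.00032) at day 7 and 1.19 ± 0.19 (adjusted p = 0.000144) at day 21. Irf9, the DNA-binding subunit of the same complex, measured 521 and 596 on day 0, 995 and 936 on day 7, 1399 and 965 on day 14 and 1069 and 1075 on day 21 and rose by 0.79 ± 0.15 (adjusted p = 0.000631) at day 7. Irf8, a factor of myeloid cells that interferon gamma also induces, had few reads at day 0: it measured 11.9 and 14.4 on day 0, 71.96 and 74.9 on day 7, 81.1 and 97.01 on day 14 and 69.4 and 105 on day 21. The later libraries did not overlap day 0, and the ratio of means was 5.58 at day 7, with a difference of 2.40 ± 0.24 (adjusted p = 3.94e-06). The macrophage markers named above rose over the same step. Irf7, which amplifies type I interferon production, measured 227 and 297 on day 0, 578 and 479 on day 7, 1800.3 and 598 on day 14 and 529.8 and 729.5 on day 21. The first day 14 library was 3.01 times the second. Its day 7 difference was 1.02 ± 0.36 (adjusted p = 0.0304); it was no longer called without the first or the second day 0 library or the first or the second day 7 library, the weakest being 0.82 (adjusted p = 0.18) without the first day 0 library. At day 21 it was 1.26 ± 0.36 (adjusted p = 0.00965); it was no longer called without the first day 0 library or the second day 21 library, the weakest being 1.03 (adjusted p = 0.088) without the second day 21 library. Irf1, a factor shared by both interferon pathways, measured 264 and 314 on day 0, 443 and 410.1 on day 7, 470.1 and 418 on day 14 and 352 and 476 on day 21 and rose by 0.57 ± 0.15 (adjusted p = 0.00699) at day 7; it was no longer called without the first day 0 library or the first day 7 library, the weakest being 0.44 (adjusted p = 0.0822) without the first day 0 library.

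Among the RNA-binding IFIT proteins, 2 of 3 rose at day 7 and at day 21, beside 27.5% and 29.8% of all tested genes. Ifit3 measured, in normalized counts, 854 and 765 on day 0, 2063 and 1623 on day 7, 3083 and 1955 on day 14 and 2127 and 2353 on day 21. All later libraries were above day 0, with a difference of 1.18 ± 0.18 (adjusted p = 0.000126) at day 7 and 1.47 ± 0.18 (adjusted p = 1.67e-05) at day 21. Ifit1, which binds RNA lacking a 2′-O-methylated cap, measured 334 and 268 on day 0, 693 and 491 on day 7, 1493 and 529 on day 14 and 662 and 943 on day 21. Its later libraries were also above day 0, but those of day 14 were far apart. The difference was 0.96 ± 0.35 (adjusted p = 0.0358) at day 7; it was no longer called without the first or the second day 0 library or the first day 7 library, the weakest being 0.71 (adjusted p = 0.21) without the first day 7 library. By day 21 the value reached 1.40 ± 0.35 (adjusted p = 0.00461); it was no longer called without the second day 21 library, which left 1.14 (adjusted p = 0.0554). Ifit2 measured 437 and 336 on day 0, 526 and 455 on day 7, 642 and 482 on day 14 and 476 and 453 on day 21, and its differences of 0.35 ± 0.16 (adjusted p = 0.0784) at day 7 and 0.28 ± 0.16 (adjusted p = 0.15) at day 21 did not pass. Ifit3 has a near-identical neighbour, Ifit3b, with which it can share reads, so its level is uncertain.

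Isg15, a ubiquitin-like protein attached to other proteins, and Usp18, the protease that removes it, form a small system. Of the pair, 1 gene rose at day 7 and both by day 21, beside 27.5% and 29.8% of all tested genes. Isg15 measured, in normalized counts, 405 and 446 on day 0, 468 and 349 on day 7, 1214 and 625 on day 14 and 568 and 893 on day 21. Day 0 and day 7 overlapped, and the libraries of day 14 and day 21 were above both. The difference was -0.07 ± 0.27 (adjusted p = 0.838) at day 7, 1.10 ± 0.27 (adjusted p = 0.00469) from day 7 to day 14 and 0.74 ± 0.27 (adjusted p = 0.0309) from day 0 to day 21. In the second step it was no longer called without the second day 7 library, which left 0.89 (adjusted p = 0.051), and over the whole course it was no longer called without the first or the second day 0 library or the second day 21 library, the weakest being 0.42 (adjusted p = 0.28) without the second day 21 library. With the length and GC trend removed, neither was called, the values being 0.34 (adjusted p = 0.45) and 0.45 (adjusted p = 0.267). Usp18 measured 127 and 119 on day 0, 262 and 174 on day 7, 378 and 183 on day 14 and 203 and 296 on day 21, above day 0 in every later library. Its difference was 0.79 ± 0.29 (adjusted p = 0.0372) at day 7; it was no longer called without the first or the second day 0 library or the first day 7 library, the weakest being 0.49 (adjusted p = 0.279) without the first day 7 library. Its day 21 difference was 0.99 ± 0.29 (adjusted p = 0.0118); it was no longer called without the second day 0 library or the second day 21 library, the weakest being 0.72 (adjusted p = 0.119) without the second day 21 library.

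Oligoadenylate synthetases bind double-stranded RNA and make short chains of adenylate as a messenger. Of 7 tested, 5 were called higher at day 7 and 6 by day 21, and without Oas2 and Oas3 the counts were 3 and 4 of 5. All tested genes gave 27.5% and 29.8%, and those that reached 10 on day 0 gave 25.5% and 27.5%. Oas2 measured, in normalized counts, 4.78 and 6.54 on day 0, 102 and 42.8 on day 7, 261 and 112 on day 14 and 72.6 and 102 on day 21. At day 0 both libraries were under 10, and every later library lay above them; the ratio of means was 12.8 at day 7 and 15.4 at day 21. The log2 differences of 3.35 and 3.72 are given as a description, since this gene passed the filter only through the later times. Oas3 measured 4.78 and 0 on day 0, 26.4 and 17.8 on day 7, 27.3 and 12.9 on day 14 and 19.2 and 26.3 on day 21, with 9.26 times the day 0 mean at day 7, a mean that rests on 6 reads in 1 library. Its log2 difference at day 7, likewise a description, was 3.24, and it was 1.98 without the second day 0 library and 4.51 without the first. Oas1b, which is truncated in C57BL/6 mice, measured 15.1 and 20.9 on day 0, 38.3 and 39.2 on day 7, 87.5 and 74.8 on day 14 and 30.97 and 51.6 on day 21 and differed by 1.08 ± 0.28 (adjusted p = 0.00598) at day 7; it was no longer called without the first day 0 library, which left 0.86 (adjusted p = 0.0585). At day 21 it was no longer called without the second day 21 library, which left 0.77 (adjusted p = 0.0543), from 1.12 ± 0.28 (adjusted p = 0.0042). Oas1a measured 43.8 and 74.5 on day 0, 106 and 68.6 on day 7, 241 and 167 on day 14 and 139 and 162 on day 21. It gave 0.57 ± 0.27 (adjusted p = 0.0972) at day 7, not past the test, and 1.38 ± 0.27 (adjusted p = 0.000888) at day 21. Oasl1, a relative without synthetase activity, measured 46.2 and 27.5 on day 0, 33.7 and 24.1 on day 7, 83.8 and 40.9 on day 14 and 35.2 and 55.4 on day 21. The day 0 and day 7 libraries overlapped, with -0.31 ± 0.37 (adjusted p = 0.495) at day 7 and 0.30 ± 0.37 (adjusted p = 0.499) at day 21. Oas1g measured 27.9 and 32.7 on day 0, 62.9 and 46.4 on day 7, 103 and 72.5 on day 14 and 68.4 and 81.7 on day 21, and Oasl2 362 and 396 on day 0, 832 and 668 on day 7, 1301 and 609 on day 14 and 653 and 1088 on day 21; both lay above day 0 in every later library. Oas1a and Oas1g are near-identical in sequence and can share reads.

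The Mx GTPases block viruses, and most laboratory mouse strains, C57BL/6 among them, carry defective Mx1 and Mx2 genes. Mx2 measured, in normalized counts, 7.96 and 5.23 on day 0, 40.99 and 16.05 on day 7, 108 and 56.1 on day 14 and 36.3 and 53.5 on day 21. All later libraries lay above day 0, with log2 differences of 1.84 at day 7 and 2.59 at day 21, given as a description because day 0 was under 10. Without the first day 7 library the former was 1.19. Mx1 measured 3.98 and 1.31 on day 0, 8.20 and 7.13 on day 7, 18.2 and 5.84 on day 14 and 6.41 and 8.75 on day 21, reached 10 in 1 library and was not tested.

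Of 6 sensors of foreign RNA and their partners, 3 rose at day 7 and the same number at day 21. Dhx58, a regulator of the RNA helicase sensors, measured, in normalized counts, 77.2 and 115 on day 0, 251 and 203 on day 7, 263 and 219 on day 14 and 197 and 309 on day 21. All later libraries lay above day 0, with a difference of 1.25 ± 0.23 (adjusted p = 0.000599) at day 7 and 1.38 ± 0.23 (adjusted p = 0.000253) at day 21. Ifih1, the sensor of long double-stranded RNA, measured 346 and 312 on day 0, 519 and 427 on day 7, 543 and 362 on day 14 and 468 and 579 on day 21. It rose by 0.52 ± 0.18 (adjusted p = 0.0273) at day 7; it was no longer called without the first or the second day 0 library or the first day 7 library, the weakest being 0.38 (adjusted p = 0.203) without the first day 7 library. At day 21 it differed by 0.66 ± 0.18 (adjusted p = 0.00695); it was no longer called without the second day 0 library or the second day 21 library, the weakest being 0.51 (adjusted p = 0.0721) without the second day 21 library. Ddx58, the RIG-I sensor, measured 1093 and 1205 on day 0, 1281 and 1098 on day 7, 953 and 643 on day 14 and 897 and 1321 on day 21. The day 0 and day 7 libraries overlapped, both day 14 libraries lay below them, and those of day 21 were spread. Its difference of 0.05 ± 0.19 (adjusted p = 0.849) at day 7 did not pass. From day 7 to day 14 it was the only tested ISG to fall, by 0.60 ± 0.19 (adjusted p = 0.02); it was no longer called without the first day 7 library or the second day 14 library, the weakest being -0.32 (adjusted p = 0.179) without the second day 14 library. Trim25, which activates RIG-I, measured 529 and 554 on day 0, 793 and 723 on day 7, 810.0 and 659 on day 14 and 746 and 799.5 on day 21 and rose by 0.48 ± 0.12 (adjusted p = 0.00378) at day 7; it was no longer called without the first day 7 library, which left 0.42 (adjusted p = 0.0523). Eif2ak2, the kinase PKR that stops translation when it binds double-stranded RNA, measured 733 and 675 on day 0, 958 and 788 on day 7, 895 and 579.7 on day 14 and 791 and 817 on day 21. Its day 7 and day 21 libraries lay above day 0, but its differences of 0.30 ± 0.17 (adjusted p = 0.144) and 0.19 ± 0.17 (adjusted p = 0.342) did not pass. Zbp1, a sensor of Z-form nucleic acids, measured 266 and 312 on day 0, 428 and 341 on day 7, 729.8 and 354 on day 14 and 374 and 450.3 on day 21 and gave 0.41 ± 0.26 (adjusted p = 0.195) and 0.51 ± 0.26 (adjusted p = 0.105), also not past the test.

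Among 8 immunity-related and guanylate-binding GTPases, which act on pathogen vacuoles, 6 rose (75.0%) and 2 fell (25.0%) at both day 7 and day 21. All tested genes gave 27.5% higher and 27.9% lower at day 7, and 29.8% and 29.5% at day 21. The share of these GTPases that fell was thus not above that of all genes. Gbp3 measured, in normalized counts, 122 and 171 on day 0, 559 and 421 on day 7, 1265 and 602 on day 14 and 565 and 700.3 on day 21, all later libraries above day 0. Its difference was 1.74 ± 0.28 (adjusted p = 0.000204) at day 7 and 2.11 ± 0.28 (adjusted p = 3.44e-05) at day 21. Gbp2 measured 283 and 326 on day 0, 661 and 505 on day 7, 886 and 651 on day 14 and 783 and 872 on day 21, again without overlap with day 0, and the difference was 0.93 ± 0.16 (adjusted p = 0.000387) at day 7 and 1.44 ± 0.16 (adjusted p = 8.41e-06) at day 21. Gbp7 measured 74.8 and 58.8 on day 0, 187 and 148 on day 7, 224 and 85.3 on day 14 and 147 and 173 on day 21 and differed by 1.31 ± 0.33 (adjusted p = 0.00514) at day 7; it was no longer called without the second day 0 library, which left 1.14 (adjusted p = 0.0529). Its later libraries also lay above day 0, the second of day 14 by the least. Iigp1 measured 85.99 and 66.7 on day 0, 332 and 244 on day 7, 418 and 191 on day 14 and 207 and 297 on day 21 and rose by 1.90 ± 0.30 (adjusted p = 0.000203) at day 7. Igtp, a related membrane GTPase, measured 115 and 126 on day 0, 349.8 and 297 on day 7, 419 and 264 on day 14 and 301 and 348 on day 21 and rose by 1.41 ± 0.19 (adjusted p = 4.99e-05).

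The GTPases that fell were Irgm1 and Ifi47, 2 members of the same family. Irgm1, a regulator that keeps the others off a cell's own membranes, measured, in normalized counts, 2975 and 3299.9 on day 0, 1910.2 and 1690.3 on day 7, 2032 and 1305 on day 14 and 1395 and 1566 on day 21. Every later library lay below both day 0 libraries, and the difference was -0.80 ± 0.16 (adjusted p = 0.00129) at day 7 and -1.08 ± 0.16 (adjusted p = 0.000112) at day 21, where the day 0 mean was 2.12 times the later one. Irgm2, its relative, went the other way: it measured 462 and 523 on day 0, 1111 and 986 on day 7, 1294 and 694 on day 14 and 914 and 1114 on day 21, with 1.09 ± 0.22 (adjusted p = 0.00104) at day 7. Ifi47 measured 327 and 344 on day 0, 259 and 226 on day 7, 332 and 257 on day 14 and 176 and 215 on day 21, with day 14 reaching back to the day 0 level in 1 library. Its difference was -0.47 ± 0.16 (adjusted p = 0.0211) at day 7; it was no longer called without the first or the second day 0 library or the second day 7 library, the weakest being -0.37 (adjusted p = 0.156) without the second day 7 library. At day 21 it was -0.78 ± 0.16 (adjusted p = 0.000877).

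All 5 membrane restriction factors rose at day 7 and stayed above day 0 at day 21, where 27.5% and 29.8% of all tested genes were called higher. Bst2 (tetherin), which holds budding virus at the cell surface, measured, in normalized counts, 823 and 1162 on day 0, 3498 and 2733 on day 7, 8429 and 5158 on day 14 and 4440.0 and 4185 on day 21. No later library overlapped day 0, and the mean was 3.14 times the day 0 mean at day 7 and 4.34 times at day 21. The log2 difference was 1.66 ± 0.21 (adjusted p = 2.67e-05) at day 7 and 2.14 ± 0.21 (adjusted p = 2.34e-06) at day 21. Ifitm3, which blocks the fusion of viruses with endosomes, was the highest of the 45 genes per kilobase of transcript, with a mean of 11875 at day 0 and 23066 at day 21. It measured 7614 and 8489 on day 0, 17016 and 16498 on day 7, 20889 and 17425 on day 14 and 14797 and 16480.0 on day 21 and rose by 1.06 ± 0.12 (adjusted p = 8.68e-06). Ifitm2, a relative of Ifitm3, measured 5214 and 5634 on day 0, 8863 and 9573 on day 7, 10095 and 10558 on day 14 and 9506 and 8611 on day 21 and rose by 0.77 ± 0.10 (adjusted p = 3.34e-05). Rtp4, named as a receptor transporter and induced by type I interferon, measured 119 and 218 on day 0, 595 and 419.9 on day 7, 1316 and 652 on day 14 and 472 and 677 on day 21 and rose by 1.63 ± 0.32 (adjusted p = 0.00103). Ifitm genes resemble each other, and reads of 1 can be counted to another.

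Parp9 and Parp14, of the ADP-ribosyltransferase family, both rose at day 7, as did 27.5% of all tested genes. Parp9 measured, in normalized counts, 399.7 and 456 on day 0, 772 and 661 on day 7, 1041 and 693 on day 14 and 728 and 754 on day 21 and rose by 0.74 ± 0.16 (adjusted p = 0.00209). Parp14 measured 245 and 268 on day 0, 589 and 563 on day 7, 579 and 404 on day 14 and 406 and 583 on day 21 and rose by 1.16 ± 0.18 (adjusted p = 0.000172). All later libraries of both lay above day 0. Among 5 other effectors, 2 rose at day 7 (40.0%) and 4 by day 21 (80.0%), beside 27.5% and 29.8% of all tested genes. Ifi35, which binds the signalling protein Nmi, measured, in normalized counts, 416 and 462 on day 0, 756 and 767 on day 7, 1532 and 1389.6 on day 14 and 943 and 1047 on day 21. Its libraries did not overlap between successive times, and it rose by 0.79 ± 0.10 (adjusted p = 3.97e-05) at day 7. Ifi44, a cytoplasmic ISG, measured 60.5 and 73.2 on day 0, 189 and 117 on day 7, 347 and 95.8 on day 14 and 131 and 193 on day 21 and rose by 1.15 ± 0.44 (adjusted p = 0.0427) at day 7; it was no longer called without the first or the second day 0 library or the first day 7 library, the weakest being 0.80 (adjusted p = 0.253) without the first day 7 library. Rsad2 (viperin), an enzyme that makes a chain-terminating nucleotide, measured 42.99 and 20.9 on day 0, 40.1 and 22.3 on day 7, 56.5 and 18.7 on day 14 and 32.04 and 49.6 on day 21, overlapped at every step and was never called.

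**Figure D2:**
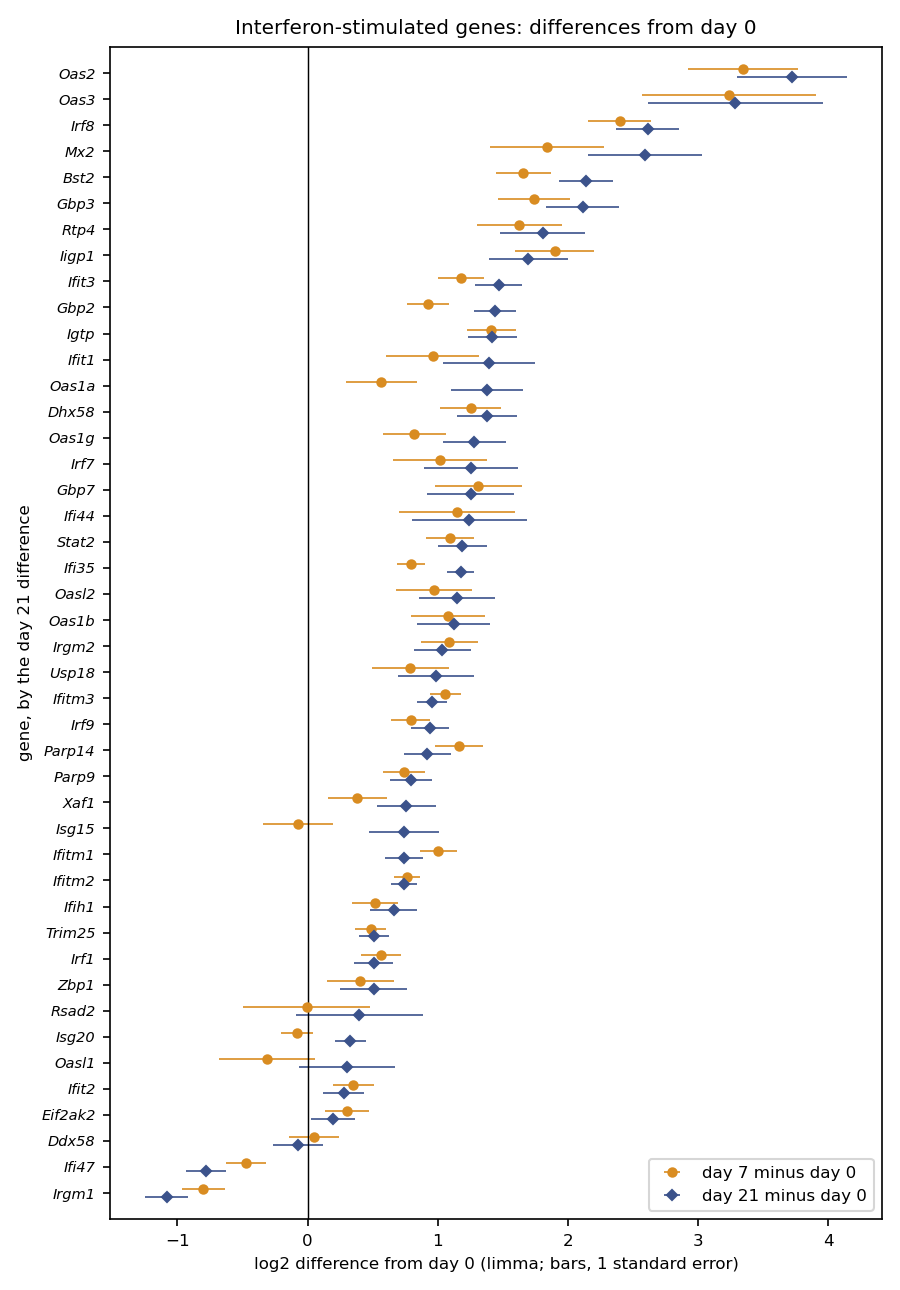
Log2 differences from day 0 at day 7 (circles) and day 21 (diamonds) for the 44 tested genes, ordered by the day 21 value, with bars of 1 standard error of the limma fit. Oas2, Oas3 and Mx2 had under 10 normalized counts on day 0 and are shown as a description. Oas2 stands highest at 3.72 and Irgm1 lowest at -1.08 at day 21.

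From day 7 to day 14, 14 of 44 ISGs rose and 1 fell, beside 25.0% and 27.0% of all tested genes, with a median of 0.27 against -0.0005 for all. The synthetases gave 5 of the 14: Oas1a, Oas1b, Oas1g, Oas2 and Oasl1. The others were Isg15, Mx2, Irf7, Gbp3, Bst2, Rtp4, Isg20, Ifi35 and Xaf1, and Ddx58 was the gene that fell. Bst2 rose by 1.09 ± 0.21 (adjusted p = 0.00104) and Ifi35 by 0.94 ± 0.10 (adjusted p = 4.49e-05), both without overlap between the libraries. Xaf1, a proapoptotic factor, measured 146 and 214 on day 0, 258 and 208 on day 7, 582 and 353 on day 14 and 293 and 309 on day 21 normalized counts and rose by 0.97 ± 0.23 (adjusted p = 0.00364). Isg20, an exonuclease of single-stranded RNA, measured 281 and 323 on day 0, 272 and 298 on day 7, 444 and 419.6 on day 14 and 393 and 365 on day 21 and rose by 0.60 ± 0.12 (adjusted p = 0.00156). Oas1a rose by 1.23 ± 0.27 (adjusted p = 0.0028) and Oas1b by 1.04 ± 0.28 (adjusted p = 0.00834). Over all genes the log2 difference at this step fell by 0.38 for each doubling of transcript length, and the median transcript was 2466.5 bases long for the ISGs and 3095 for all genes. With the trend on length and GC content removed, 8 ISGs were higher and 4 lower. Bst2 was then at 0.41 (adjusted p = 0.239) and Isg20 at 0.14 (adjusted p = 0.387), both no longer called, as were Gbp3, Irf7, Isg15, Oas1g, Oasl1 and Rtp4.

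The count for this step moved with the 2 day 14 libraries, which stood apart. The first was above the second for 42 of 44 genes, by a median of 0.63 on the log2 scale, and 14 of the 44 (31.8%) differed over 2-fold. Of all tested genes 50.9% were higher in the first, and 3.04% differed over 2-fold. Without the first day 14 library the count was 7 higher and 6 lower, with a median of -0.01. Without the second it was 26 higher and 0 lower, with a median of 0.58. Oas1a, Oas1b, Bst2, Isg20, Ifi35 and Xaf1 kept their call without any 1 of the 4 libraries compared. Others lost it. Irf7 rose by 0.98 ± 0.36 (adjusted p = 0.0385); it was no longer called without the first or the second day 7 library or the first day 14 library, the weakest being 0.18 (adjusted p = 0.453) without the first day 14 library. Oas2 rose by 1.36 ± 0.42 (adjusted p = 0.0175); it was no longer called without the second day 7 library or the first day 14 library, the weakest being 0.74 (adjusted p = 0.206) without the second day 7 library. Mx2 stood at 1.56 ± 0.44 (adjusted p = 0.0102), and it was no longer called without the second day 7 library or the first day 14 library, the weakest being 0.91 (adjusted p = 0.131) without the second day 7 library. Gbp3 rose by 0.85 ± 0.28 (adjusted p = 0.0234); it was no longer called without the second day 7 library or the first day 14 library, the weakest being 0.31 (adjusted p = 0.231) without the first day 14 library. Rtp4 stood at 0.89 ± 0.32 (adjusted p = 0.0364), and it was no longer called without the second day 7 library or the first day 14 library, the weakest being 0.38 (adjusted p = 0.302) without the first day 14 library.

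Some ISGs differed far more than others between these libraries. Ifi44 measured 347 and 95.8 normalized counts in the first and second day 14 libraries, a ratio of 3.62. For Irf7 the values were 1800.3 and 598, a ratio of 3.01, and for Ifit1 1493 and 529, a ratio of 2.82. Ifitm2 (10095 and 10558), Irf8 (81.1 and 97.01) and Isg20 (444 and 419.6) were close. Macrophage markers differed the other way at day 14, with 18 of 20 higher in the second library and a median of -0.79, their summed level being 22432 and 41570. Of the 12 fibroblast markers, 10 were higher in the first day 14 library (median 0.30). In the day 7 libraries both sets were higher in the first, 38 of 44 ISGs (median 0.29) and 18 of 20 macrophage markers (0.27). In those of day 21 both were higher in the second, 40 of 44 ISGs (median -0.30) and 15 of 20 markers (-0.24). Fibroblast markers were higher in the first day 7 library for 5 of 12 (median -0.05) and in the second day 21 library for 9 of 12 (median -0.20). The cause of the difference between the day 14 libraries was not tested.

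**Figure D3:**
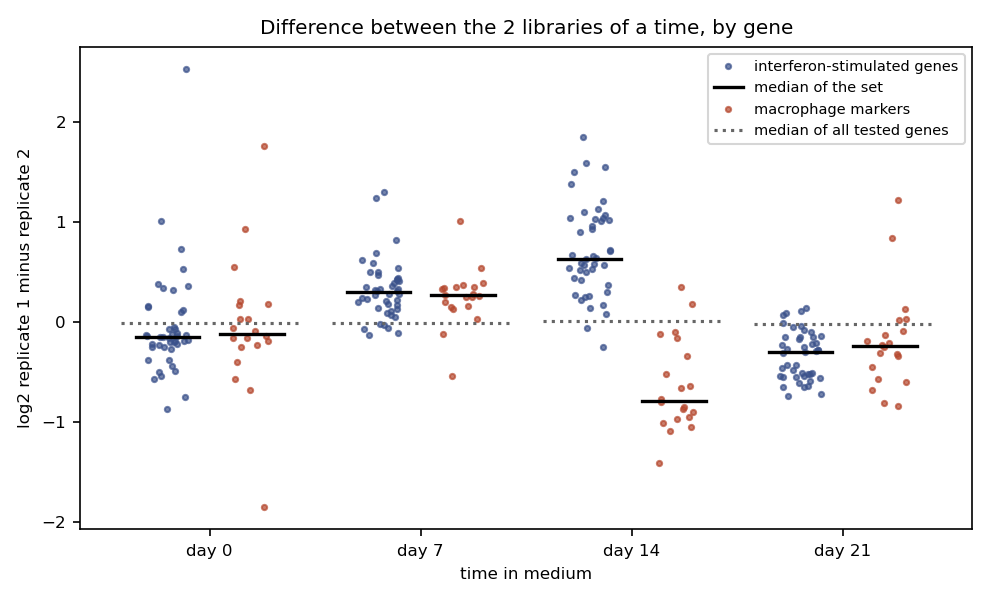
For each time, points give log2 of the first minus the second library for each tested ISG and each macrophage marker; black bars are medians of each set and dotted lines the median of all tested genes. At day 14 the ISGs sit above 0 with a median of 0.63, and the macrophage markers below it with a median of -0.79.

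Between day 14 and day 21 no ISG rose and 5 fell, where 20.2% and 14.3% of all tested genes were called; the median was -0.19 against 0.02. At an unadjusted p below 0.05, 1 gene was higher (2.27%) and 9 lower (20.5%), beside 25.5% and 20% of all tested genes; edgeR called 0 higher and DESeq2 1, Ddx58. The genes that fell were Oas1b, Ifi47, Ifitm1, Bst2 and Ifi35. Ifi35 fell by 0.55 ± 0.10 (adjusted p = 0.00263), and its call did not depend on any 1 library. Bst2 fell by 0.61 ± 0.21 (adjusted p = 0.0385); it was no longer called without the first day 14 library or the first or the second day 21 library, the weakest being -0.26 (adjusted p = 0.258) without the first day 14 library. Ifitm1, a surface relative of Ifitm3, measured, in normalized counts, 165 and 192 on day 0, 349.8 and 367 on day 7, 453 and 382 on day 14 and 269 and 329.7 on day 21 and fell by 0.48 ± 0.14 (adjusted p = 0.0226); it was no longer called without the first day 14 library or the first day 21 library, the weakest being -0.33 (adjusted p = 0.135) without the first day 21 library. Oas1b fell by 1.00 ± 0.28 (adjusted p = 0.0173) and Ifi47 by 0.58 ± 0.16 (adjusted p = 0.0135). Neither was called without the first day 14 or the first day 21 library, the weakest value of Oas1b being -0.64 (adjusted p = 0.123) without the first day 21 library and that of Ifi47 -0.44 (adjusted p = 0.0822) without the first day 21 library. Without the first day 14 library 5 ISGs were higher and 1 lower, and the median was 0.14; without the second 20 were lower, and it was -0.49. With the trend on length and GC content removed, 1 ISG, Ifitm2, was higher and 0 lower, Ifi35 being at -0.29 (adjusted p = 0.0727).

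**Figure D4:**
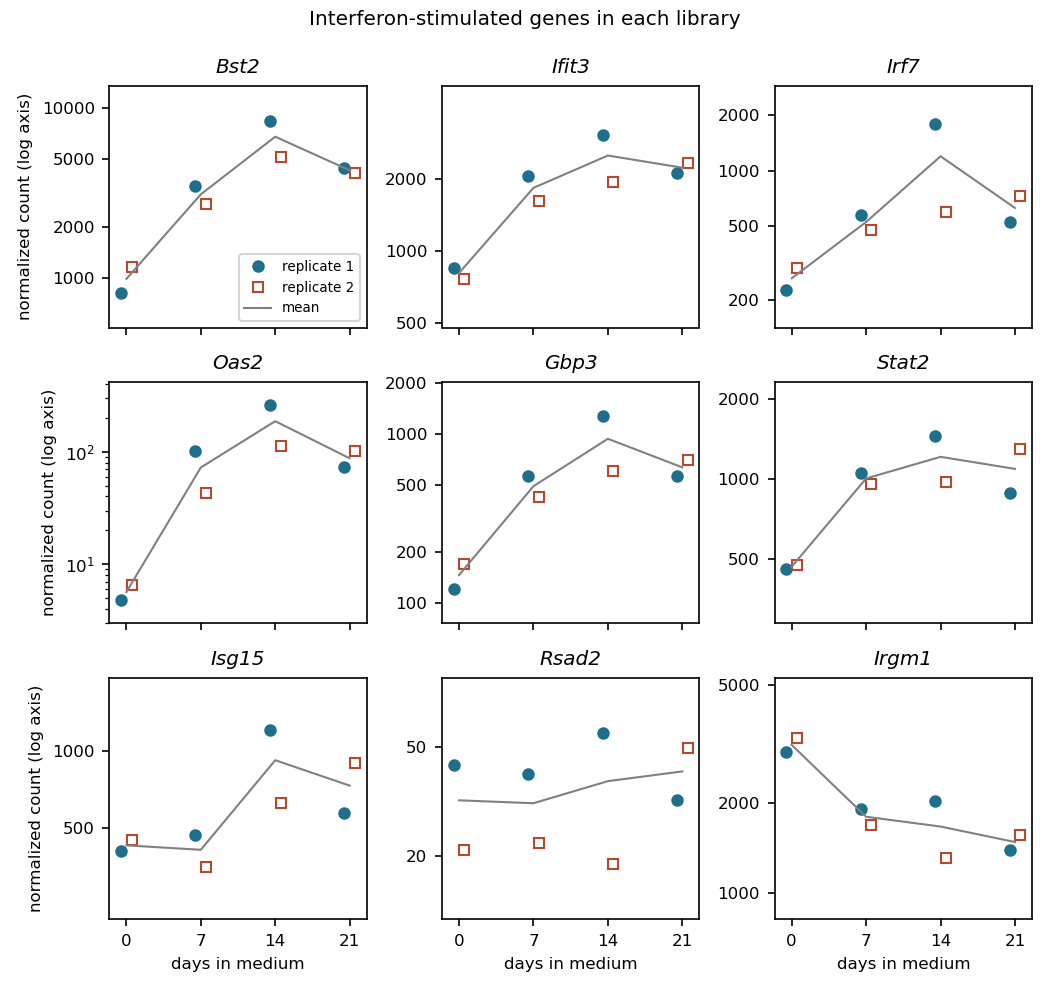
Normalized counts on a log axis against days in medium for 9 genes, with each library as a point (circles, first; open squares, second) and the line through the means. Bst2, Oas2 and Gbp3 rise by day 7 and peak in the first day 14 library, Isg15 overlaps between day 0 and day 7, Rsad2 is spread at each time, and Irgm1 falls.

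Further interferon targets outside the 45 genes were read from lists that hold none of them. Of 35 other ISGs tested, 24 rose and 1 fell at day 7 (68.6% and 2.86%), with a median of 0.79. By day 21, 28 rose and 2, Pml and Lgals9, fell (80.0% and 5.71%). Among all tested genes the shares were 27.5% and 27.9% at day 7 and 29.8% and 29.5% at day 21. Ifi27l2a, a small hydrophobic protein, measured, in normalized counts, 46.2 and 88.9 on day 0, 631 and 269 on day 7, 4878 and 2024 on day 14 and 1894 and 1061 on day 21. Each later time was above day 0, and the log2 difference at day 21 was 4.45 ± 0.45 (adjusted p = 3.25e-06). Slfn5, a nuclear Schlafen protein, measured 1624 and 1556 on day 0, 6354 and 5823 on day 7, 9067 and 7395 on day 14 and 10563 and 11609.8 on day 21 and differed by 2.80 ± 0.11 (adjusted p = 7.27e-10) at day 21. Pml, the organizer of nuclear bodies, measured 1283 and 1476 on day 0, 977 and 998 on day 7, 672 and 594 on day 14 and 647 and 929.9 on day 21 and was the gene that fell at day 7, by 0.48 ± 0.15 (adjusted p = 0.0162); it was no longer called without the second day 0 library or the first or the second day 7 library, the weakest being -0.38 (adjusted p = 0.141) without the second day 0 library. The chemokine Cxcl10, a textbook interferon target, measured 33.4 and 10.5 on day 0, 9.11 and 6.24 on day 7, 10.02 and 8.18 on day 14 and 12.8 and 11.7 on day 21 and gave -1.22 ± 0.49 (adjusted p = 0.0528) at day 7, not past the test, with the first day 0 library well above the others; edgeR called it lower (-1.60, adjusted p = 0.0144). Without that library the value was -0.42 (adjusted p = 0.52). Of the other chemokines of the list, only Ccl2 and Ccl7, which attract monocytes, were tested. Ccl2 measured 365 and 511 on day 0, 706 and 732 on day 7, 564 and 709 on day 14 and 743 and 825 on day 21 and rose by 0.73 ± 0.16 (adjusted p = 0.0016) at day 7. Ccl7 measured 348 and 433 on day 0, 519 and 551 on day 7, 782 and 899.9 on day 14 and 1125 and 1012 on day 21 and rose by 0.46 ± 0.13 (adjusted p = 0.00782); it was no longer called without the first day 0 library or the second day 7 library, the weakest being 0.30 (adjusted p = 0.113) without the first day 0 library.

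Class I antigen presentation genes show peptides to T cells and are raised by both interferons. They rose in 12 of 14 cases at day 7 (85.7%), with a median of 1.45, and in 13 by day 21 (92.9%). Among all tested genes 27.5% rose at day 7 and 29.8% by day 21. B2m, the invariant light chain, measured, in normalized counts, 8539.9 and 8765 on day 0, 33192 and 26937 on day 7, 34004 and 23719.8 on day 14 and 30456 and 29018 on day 21. Later libraries were all above day 0, by 1.79 ± 0.16 (adjusted p = 1.24e-06) at day 7. Psmb9, an immunoproteasome subunit, measured 12.7 and 15.7 on day 0, 66.5 and 64.2 on day 7, 140.3 and 113 on day 14 and 110.0 and 100.2 on day 21 and rose by 2.13 ± 0.21 (adjusted p = 2.93e-06), then by 0.94 ± 0.21 (adjusted p = 0.00257) to day 14, a step not called with the trend on length and GC content removed (0.57, adjusted p = 0.0544). H2-D1, a classical heavy chain, rose by 2.22 ± 0.12 (adjusted p = 1.23e-08) at day 7. Tap1, the peptide transporter, measured 486 and 513 on day 0, 527 and 460.0 on day 7, 482 and 324 on day 14 and 475 and 613 on day 21 and gave -0.02 ± 0.18 (adjusted p = 0.933), not past the test. The list for sensing upstream of interferon is mixed, with signalling factors such as Mavs and Irf3 and the receptors Tlr2 and Tlr4 beside nucleic acid sensors. Of its 14 tested genes, 8 were called higher and 2 lower at day 7, or 7 and 2 of 13 without Tlr7. Those 13 gave 53.8% and 15.4%, beside 25.5% and 29.3% of all genes left without those under 10 in both day 0 libraries. Tlr7, a receptor for RNA in endosomes of immune cells, measured 3.98 and 1.31 on day 0, 51.9 and 42.8 on day 7, 48.3 and 73.6 on day 14 and 73.7 and 111 on day 21; it was under 10 in both day 0 libraries and entered the tests only through later times, so it is given as values alone.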

How the data were processed

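Per the labels' protocols, total RNA (RNeasy Plus Mini Kit) was made into Illumina libraries. The table deposited by the authors holds a signal for each gene: its reads, scaled by a single size factor in each library. Tools named in the submitters' processing notes, without their roles, are HTSeq 0.6.1, TopHat2 2.0.11 and DESeq, with the mouse genome mm9. Annotation and strand: not given in the sources used here. Overlapping and antisense genes are therefore uncertain. Whole reads were recovered from the steps of 1 read, and 100% of values were whole within 0.01 reads.

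The filter kept 13527 genes that reached 10 normalized counts in 2 or more of the 8 libraries. Values were taken as log2(value + 1), a scale that understates the change of low genes, and compared between times with limma 3.58.1 (trend) over all 8 libraries, with 4 residual and 8.16 prior degrees of freedom. P-values were adjusted over all tested genes by the Benjamini-Hochberg method, with calls below 0.05. Errors are standard errors of this fit. The counted reads were also tested with edgeR 4.0.16 and DESeq2 1.42.0 in R 4.3.3; Python 3.11.15 and matplotlib 3.10.9 drew the figures. The fits were tested on simulated data. Transcript lengths and GC content came from GENCODE M21 (GRCm38), matched by symbol for 23639 genes (98.4%), and promoter windows from RefSeq (GRCm38.p6); of 34 genes with a window, the end of it matched the gene's own transcript in 32.

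The genes and the lists were chosen with earlier results of these data known. Full statistics go, per comparison, mainly to up to 3 called genes of each role with the largest change and to genes whose call most of their role does not share, and from each pathway list to up to 4 called and 2 uncalled genes. All 45 ISGs are given with their values in every library. Genes under 10 in both day 0 libraries passed the filter only through later times, so their differences from day 0 are given with no test. Alternatives were another pseudocount, no filter, TMM scaling, edgeR, DESeq2, removal of the length and GC trend, a fit on the 4 libraries compared, the replicate number as a block, and leaving out each library in turn.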

Additional observations from a re-analysis of the deposited data

How the results depend on the processing

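Against day 0, 32 higher at day 7 became 22 to 35 and the 2 lower 1 to 2 when 1 library was left out, and 36 higher at day 21 became 26 to 37. The later weekly steps depended on single libraries. From day 7 to day 14, 14 higher became 9 with no filter on low values, 8 with the length and GC trend removed and 6 to 26 without 1 library (6 without the second day 7 library), and 1 lower became 4 with that trend removed and 0 to 6 without 1 library. From day 14 to day 21, 0 higher became 1 with DESeq2, 1 with the trend removed and 0 to 5 without 1 library, and 5 lower became 9 with edgeR, 0 with the trend removed and 1 to 20 without 1 library. No shared effect of the library number was seen: correlations between the replicate differences of 2 times were -0.04 to 0.07. Such values cannot tell whether libraries with the same number share a culture or an animal. With the replicate block the counts of higher and lower genes were 32 and 2, 13 and 1, 0 and 4, and 36 and 2 for day 7 against 0, 14 against 7, 21 against 14 and 21 against 0. Of the values of named genes under these alternatives, 1028 kept direction and side of the threshold, 110 no longer passed, 13 newly passed and 25 changed sign, none of the last being called in the fit given above. Without 1 library, Oasl1 at day 7 against day 0 ranged from -0.678 to 0.052 (0.052 without the first day 0 library). From day 7 to day 14 Oas3 was 0.156 with the length and GC trend removed and -0.714 to 0.318 without 1 library, above 0 without the first day 7 (0.073) or the second day 14 library (0.318). Over the same step the sign changed without the first day 14 library for Oasl2 (-0.291, up to 0.803 without others), Ifi44 (-0.629 to 1.217) and Rsad2 (-0.651 to 0.894), the latter 2 being also below 0 without the second day 7 library, at -0.053 and -0.288. At day 21 against day 0 Oasl1 ranged from -0.061 (without the second day 0 library) to 0.669, with -0.016 without the second day 21 library, and Rsad2 from -0.105 (without the second day 0 library) to 0.900. Ifnar1, Tap1 and Socs1 were near 0 at day 7 against day 0: Ifnar1 was 0.023 with TMM scaling, 0.021 with edgeR, 0 with the trend removed and -0.040 to 0.017 without 1 library, Tap1 0.015, 0.017, 0.024 and -0.118 to 0.079, and Socs1 -0.032 with edgeR, -0.040 with DESeq2 and -0.320 to 0.378 without 1 library. For these counts and signs the cause was not tested. Few reads limit Oas3, Mx1 and Mx2.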
